A study of Homo sapiens with 9 samples.

Results

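The HOX cluster genes were followed in SET2 cells and in 2 DYRK1A knockout (KO) clones. Members were all genes of the protein-coding biotype whose symbol is HOX, a letter from A to D and a number, which gave 39 of the 60662 genes in the deposited table. GENCODE v29 placed all 39 on GRCh38, 11 in the HOXA cluster (chr7:27092993-27200106), 10 in HOXB (chr17:48528526-48729178), 9 in HOXC (chr12:53938765-54056030) and 9 in HOXD (chr2:176092891-176190907). RNA-seq was made from 9 libraries without drug treatment. They were WT SET2 (n = 3), a JAK2 mutant megakaryoblastic line labelled as AML after a myeloproliferative neoplasm (MPN), and the KO clones 11H1 (n = 3) and 14B5 (n = 3). The question of the study's design was how each clone differed from WT after loss of DYRK1A, a kinase encoded on chromosome 21. Each clone was grown from 1 sorted cell after nucleofection of Cas9 with a guide against DYRK1A, and was chosen for out-of-frame indels. No unedited clone was among the samples, so an effect of the KO and the history of a founder cell cannot be told apart, and p values describe differences between these cell populations. Both comparisons with WT used the same WT libraries.

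HOX proteins are homeodomain transcription factors that set position along the body axis in the embryo. Genes with the same number in different clusters are paralogs, low numbers are used towards the head and high numbers towards the tail and limb ends, and within a cluster the genes lie in numerical order. In blood, stem and progenitor cells use genes of the HOXA and HOXB clusters with MEIS and PBX cofactors, the genes are normally silenced as cells mature, and sustained HOXA9 with MEIS1 is a hallmark of several acute leukemias. Trithorax proteins such as KMT2A (MLL) and menin keep HOX genes on, and Polycomb complexes keep them off.

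Libraries held 32347779 to 60272245 expected counts in total. Levels are in CPM, counts per 1000000 counts on library sizes scaled by TMM (trimmed mean of M values). Mitochondrially encoded genes took 3.54% to 6.03% of counts in WT, 7.23% to 7.39% in 11H1 and 3.30% to 3.92% in 14B5. DYRK1A RNA stood at 197, 196 and 219 CPM in WT, 188, 191 and 192 CPM in 11H1 and 191, 182 and 174 CPM in 14B5. It did not pass the threshold in 11H1 (edgeR adjusted p = 0.131) and was 1.13-fold lower in 14B5 (adjusted p = 0.0278), and RNA counts do not show the reading frame. The megakaryocytic markers ITGA2B and GATA1 were expressed in all groups, but PF4 was at 0.510 CPM in WT and at 0 in both clones. The summed level of 6 megakaryocytic markers was 1306 to 1322 CPM in WT. It was 915 to 970.5 CPM in 11H1 and 892 to 931 CPM in 14B5. Of the 6 markers, 6 were lower in 11H1 and 5 in 14B5 (edgeR), against 32.8% and 28.7% of all genes tested. ITGA2B (920 CPM) and GATA1 (274 CPM) made most of the sum in WT, and GATA1 was not past the threshold in 14B5 (edgeR adjusted p = 0.611). The part of these markers in the HOX results was not tested. In a bulk sample fewer cells with a transcript and less RNA per cell cannot be told apart. The summed level of 6 markers of fibroblasts, which carry HOX programs of their own, was 2.99 to 3.25 CPM in WT, 2.83 to 2.98 CPM in 11H1 and 0.888 to 1.32 CPM in 14B5. Erythroid markers (6) summed to 2008 to 2355 CPM in WT, 2619 to 2857 CPM in 11H1 and 2014 to 2439 CPM in 14B5, monocyte and granulocyte markers (5) to 197 to 199.8, 102 to 109 and 112 to 124 CPM, and T and B cell markers (5) to 21.7 to 24.3, 18.5 to 20.2 and 11.4 to 13.5 CPM. Their part in the HOX results was not tested.

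SET2 expressed the HOXA and HOXB clusters broadly and little of HOXC and HOXD. In WT, 20 members had a mean of at least 1 CPM, 9 of 11 in HOXA, 8 of 10 in HOXB, 2 of 9 in HOXC (HOXC4 and HOXC6) and 1 of 9 in HOXD (HOXD13). The members of a cluster summed to 94.98 ± 1.05 CPM (SD, n = 3) for HOXA, 149.9 ± 2.21 CPM for HOXB, 4.97 ± 0.247 CPM for HOXC and 7.36 ± 0.690 CPM for HOXD. All 39 summed to 257 ± 2.74 CPM in WT, 208 ± 6.68 CPM in 11H1 and 265 ± 4.06 CPM in 14B5, so the 11H1 libraries lay below the other 6. The number of members at 1 CPM or more was 18 in 11H1 and 19 in 14B5.

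**Figure D1:**
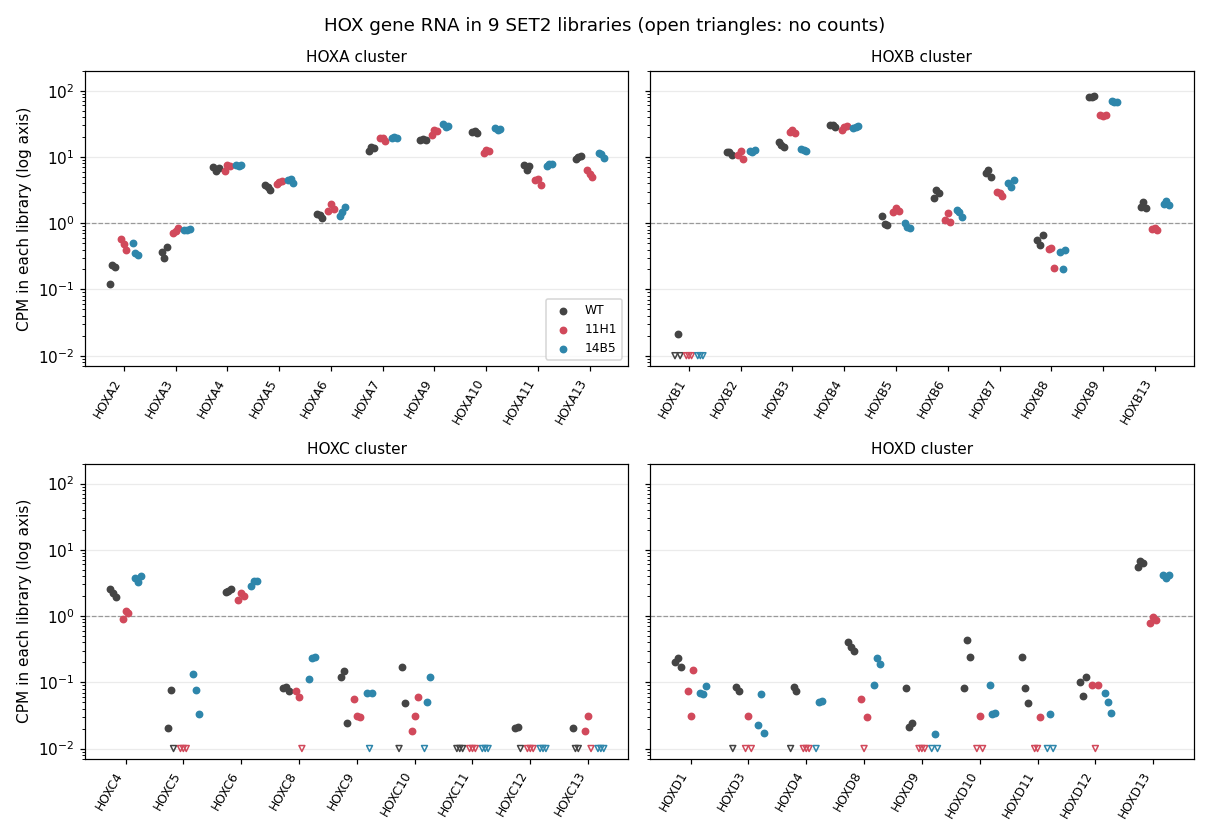
CPM of the HOX members reported here in each of 9 libraries (log axis), one panel per cluster with genes in paralog order; points are libraries of WT, 11H1 and 14B5, open triangles are libraries with no counts and the dashed line is 1 CPM. Most HOXA and HOXB members lie above 1 CPM, while HOXD13 stands alone in its cluster and is lowest in 11H1.

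Per kilobase of annotated exon, the level at which genes can be compared with each other, HOXB9 led in WT at 31.5 ± 0.789 CPM per kb (SD, n = 3) and led in both clones. It was followed by HOXB4, known for expanding hematopoietic stem cells, at 7.92 ± 0.284, HOXA10, a gene of myeloid and megakaryocytic progenitors, at 6.41 ± 0.204, HOXA9 at 6.05 ± 0.0899 and HOXA7 at 5.54 ± 0.364 CPM per kb. HOXA7 and the next gene, HOXB2 (4.96 ± 0.341 CPM per kb), differed by less than the sum of their SDs, as did HOXA4 (3.78 ± 0.288) and HOXB7 (3.72 ± 0.477). HOXD13, a gene of digits and genitalia, was at 2.76 ± 0.265 CPM per kb, which did not differ beyond the spread from HOXA11 (3.09 ± 0.281). The last places among the 20 were taken by HOXB13 (0.533 ± 0.0636), a gene of the tail and prostate, and HOXB5 (0.522 ± 0.0921), which did not differ beyond their spread. With the length of the longest transcript in place of all exons, HOXB9 stayed first and HOXB4 moved from rank 2 to rank 4. The posterior members (paralog groups 9 to 13) together made 149 ± 2.97 CPM in WT, the central members (groups 4 to 8) 69.8 ± 1.65 CPM and the anterior members (groups 1 to 3) 38.3 ± 1.63 CPM.

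Promoters are shown for 5 members whose changes the results turn on. HOXA7 and HOXA9 were higher in both clones, HOXA10 and HOXA13 were lower in 11H1, and HOXD13 was lower in both. Each is the 250 bases before a RefSeq start (GRCh38.p14), taken 5′ to 3′ on the strand of the gene, and where a gene has several starts the one nearest the GENCODE start was used. Capitals mark matches on either strand to the letters TATAAA of the TATA box, TGATNNAT of HOX with PBX, TGACAG of MEIS or AGATAA of GATA factors.
HOXA7, chr7:27156676-27156925, minus strand: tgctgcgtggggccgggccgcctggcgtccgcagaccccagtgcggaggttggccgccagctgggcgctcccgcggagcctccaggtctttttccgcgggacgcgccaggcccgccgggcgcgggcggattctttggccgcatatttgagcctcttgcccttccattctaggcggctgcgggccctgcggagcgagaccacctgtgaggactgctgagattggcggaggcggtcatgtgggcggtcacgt
HOXA9, chr7:27165538-27165787, minus strand: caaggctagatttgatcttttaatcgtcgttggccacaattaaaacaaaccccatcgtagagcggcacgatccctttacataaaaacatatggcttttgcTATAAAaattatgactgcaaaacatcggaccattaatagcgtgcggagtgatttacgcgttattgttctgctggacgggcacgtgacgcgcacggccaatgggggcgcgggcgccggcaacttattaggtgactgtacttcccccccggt
HOXA10, chr7:27179862-27180111, minus strand: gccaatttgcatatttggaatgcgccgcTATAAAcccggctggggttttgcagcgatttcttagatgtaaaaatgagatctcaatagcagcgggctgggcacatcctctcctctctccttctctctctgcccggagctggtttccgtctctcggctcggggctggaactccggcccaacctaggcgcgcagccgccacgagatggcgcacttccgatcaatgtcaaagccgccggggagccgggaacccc
HOXA13, chr7:27200092-27200341, minus strand: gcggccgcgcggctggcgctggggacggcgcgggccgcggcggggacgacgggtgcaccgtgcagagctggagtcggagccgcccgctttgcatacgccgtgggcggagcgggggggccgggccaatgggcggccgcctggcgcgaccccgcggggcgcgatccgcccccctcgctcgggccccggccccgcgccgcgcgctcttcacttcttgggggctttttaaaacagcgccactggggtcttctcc
HOXD13, chr2:176092471-176092720, plus strand: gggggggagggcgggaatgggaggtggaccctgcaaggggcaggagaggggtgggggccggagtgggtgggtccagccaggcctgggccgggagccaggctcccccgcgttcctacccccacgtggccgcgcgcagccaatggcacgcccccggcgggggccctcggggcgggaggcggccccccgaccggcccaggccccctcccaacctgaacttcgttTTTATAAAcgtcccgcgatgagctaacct

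HOXA9 and HOXA10 each had 1 match to the TATA letters in these bases, HOXD13 had 2 that overlap on opposite strands, and HOXA7 and HOXA13 had none of the 4 motifs. CG dinucleotides numbered 28 in HOXA7, 20 in HOXA9, 19 in HOXA10, 40 in HOXA13 and 21 in HOXD13. RefSeq windows of 300 bases (250 before and 50 after a start) were at hand for 20 of the 39 members, at 26 distinct starts, of which HOXC4 and HOXC5 share 1. They held a median of 22.5 CG dinucleotides, against 14.0 over 34943 windows of all genes. The TATA letters were in 5 of the 26 (19.2%) against 11.6% of all windows, those of HOX with PBX in 3 (11.5%) against 7.42%, those of MEIS in 4 (15.4%) against 15.8% and those of GATA in 2 (7.69%) against 10.4%. A match describes these letters only. The GENCODE start lay 1261, 9643, 400, 15 and 170 bases from the RefSeq start for HOXA7, HOXA9, HOXA10, HOXA13 and HOXD13, and for the HOXA genes it lay upstream, so the bases shown can fall within longer annotated transcripts.

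In 11H1 versus WT, 24 members passed the filter on low counts and 17 were past the threshold, an adjusted p below 0.05 in edgeR's quasi-likelihood test, against 64.6% of the 16675 genes tested. Of these 7 were higher (31.8% of all genes were) and 10 lower (32.8%), with a median log2FC of −0.19 over the 24 members and −0.01 over all genes. In 14B5 versus WT, 16 of 24 were past the threshold, against 53.5% of 16537 genes, 9 higher (24.9%) and 7 lower (28.7%), with a median log2FC of 0.10 and −0.01 over all genes. In 11H1 versus 14B5, 12 of 23 were past it, against 63.7% of 16352 genes, 2 higher (31.6%) and 10 lower in 11H1 (32.1%). The shares of tested members called, 70.8%, 66.7% and 52.2%, were of the size of those over all genes, so the counts in all say nothing particular of HOX genes. Members higher in both clones included HOXA2, HOXA3, HOXA7 and HOXA9, and lower in both were HOXB6, HOXB7, HOXB9, HOXD8 and HOXD13. Of these, HOXA2 passed the filter against WT only through the clones and HOXD8 only through WT, so the filter favoured their directions. With the DESeq2 Wald test in place of edgeR, HOXA2 (adjusted p = 0.123), HOXA5 (0.0640), HOXB8 (0.167), HOXC6 (0.0576) and HOXD8 (0.187) were not past the threshold in 14B5 versus WT.

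In 11H1 most posterior members and some central members fell, while no anterior member did. Of 5 anterior members tested, 4 were higher in 11H1 than in WT and none lower. Of 7 posterior members tested 1 was higher (HOXA9) and 6 lower, with HOXA10, HOXA11, HOXA13, HOXB9, HOXB13 and HOXD13 between log2FC −0.70 and −2.82. Of 12 central members tested 2 were higher and 4 lower, with HOXB6, HOXB7 and HOXC4 between log2FC −1.01 and −1.25. The remaining fall, HOXD8 at −3.27, was in a gene that passed the filter only through WT. Over all genes tested 31.8% were higher and 32.8% lower. In 14B5 the same 7 posterior members divided into 2 higher (HOXA9 and HOXA10), 2 lower (HOXB9 and HOXD13) and 3 not past the threshold. Of the 5 anterior members 3 were higher and 1 lower in 14B5, so most of the anterior rise was shared by the clones. Of the 12 central members 4 were higher and 4 lower in 14B5, where 24.9% of all genes were higher and 28.7% lower. Tested directly, all 7 posterior members were lower in 11H1 than in 14B5, with a median log2FC of −0.90. Of 11 central members tested between the clones 1 was higher and 3 lower in 11H1, and 32.1% of all genes were lower. Of 5 anterior members tested between them 1 was higher and none lower in 11H1, and 31.6% of all genes were higher. The posterior sum was 149 ± 2.97 CPM in WT (SD, n = 3), 90.0 ± 1.64 CPM in 11H1 and 149 ± 3.61 CPM in 14B5. HOXB9 alone made 81.3 CPM of it in WT, 42.5 CPM in 11H1 and 68.0 CPM in 14B5. The like sums of WT and 14B5 hide this fall beside rises of HOXA9 (18.3 to 29.8 CPM) and HOXA10 (23.8 to 26.7 CPM). The anterior sum was 38.3 ± 1.63, 50.2 ± 2.52 and 40.8 ± 1.30 CPM and the central sum 69.8 ± 1.65, 68.3 ± 2.98 and 75.1 ± 2.03 CPM, in the order WT, 11H1 and 14B5. HOXB3 made 15.3, 24.2 and 12.7 CPM of the anterior sum.

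**Figure D2:**
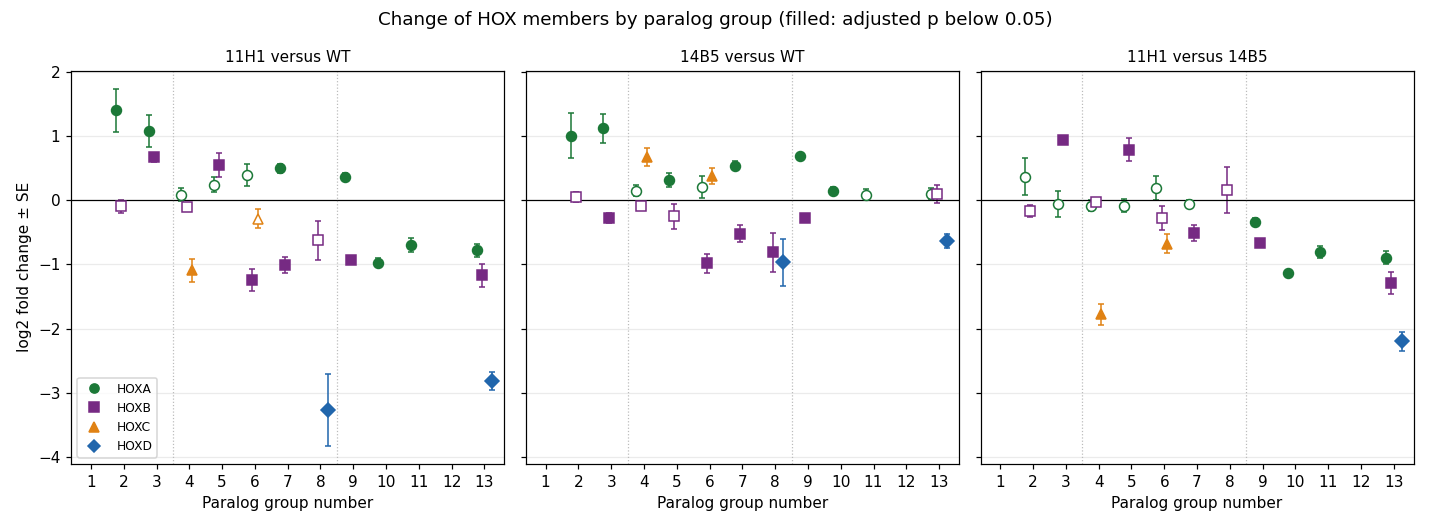
log2 fold change (points, bars are ± SE) of tested HOX members reported here, against their paralog group number, in 11H1 versus WT, 14B5 versus WT and 11H1 versus 14B5; shape and colour give the cluster, and filled points have an adjusted p below 0.05 in edgeR. All 7 posterior members lie below 0 in 11H1 versus 14B5, while HOXB3 and HOXB5 lie above it.

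In the HOXA cluster no gene from HOXA2 to HOXA9 fell past the threshold against WT in either clone. HOXA7, often on with HOXA9 in leukemia, was at 12.3, 13.9 and 13.8 CPM in the WT libraries, 19.6, 19.4 and 17.1 CPM in 11H1 and 19.6, 19.7 and 19.7 CPM in 14B5. Both clones lay above WT, and the clones lay next to each other without overlap but did not differ past the threshold (adjusted p = 0.409), with folds over WT of 1.41 and 1.45 (edgeR adjusted p = 0.000137 and 6.42e-05). HOXA9, which keeps stem and progenitor cells from maturing when forced on, was at 18.2, 18.6 and 18.1 CPM in WT, 21.3, 25.1 and 24.2 CPM in 11H1 and 31.2, 28.7 and 29.6 CPM in 14B5. Its 3 groups did not overlap, with 14B5 highest (1.61-fold over WT; edgeR adjusted p = 3.63e-06) and 11H1 between (1.29-fold; adjusted p = 0.000541). The clones differed from each other in HOXA9 (log2FC −0.34, SE 0.0651, edgeR adjusted p = 0.000668 for 11H1 versus 14B5).

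HOXA2 and HOXA3, genes of the pharyngeal arches, were under 1 CPM and showed the largest rises of the cluster. HOXA2 was at 0.122, 0.231 and 0.219 CPM in WT, 0.587, 0.487 and 0.395 CPM in 11H1 and 0.497, 0.351 and 0.331 CPM in 14B5. HOXA3 was at 0.366, 0.294 and 0.438 CPM in WT, 0.715, 0.761 and 0.852 CPM in 11H1 and 0.790, 0.803 and 0.818 CPM in 14B5. WT did not overlap with a clone in either gene. HOXA3 was 2.12-fold higher in 11H1 and 2.18-fold higher in 14B5 (edgeR adjusted p = 0.00244 and 0.00193). Its annotated span holds HOXA4, HOXA5 and HOXA6 on the same strand, which were all at higher CPM. Reads of shared parts may be divided between these genes. HOXA2, with 6 to 11 counts in a WT library, passed the filter against WT only through the clones. It was 2.64-fold higher in 11H1 (edgeR adjusted p = 0.00317) and 2.01-fold higher in 14B5 (adjusted p = 0.0315). The HOXA2 call in 14B5 was lost without WT replicate 1 (edgeR adjusted p = 0.119), 14B5 replicate 1 (0.0967) or 14B5 replicate 2 (0.0521).

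HOXA5, a gene of lung development, was at 3.74, 3.502 and 3.21 CPM in the WT libraries, 3.93, 4.17 and 4.29 CPM in 11H1 and 4.52, 4.57 and 4.07 CPM in 14B5, with both clones above WT. It passed the threshold in 14B5 (log2FC 0.31, SE 0.109, edgeR adjusted p = 0.0338) and not in 11H1 (adjusted p = 0.0735), and the call in 14B5 was lost without WT replicate 2 (adjusted p = 0.0963), WT replicate 3 (0.0930), 14B5 replicate 1 (0.0797) or 14B5 replicate 2 (0.1003). HOXA4 was at 6.998, 6.04 and 6.78 CPM in WT, 6.24, 7.49 and 7.33 CPM in 11H1 and 7.50, 7.18 and 7.61 CPM in 14B5, and 14B5 lay just above WT while 11H1 overlapped both. HOXA6 was at 1.36, 1.32 and 1.19 CPM in WT, 1.52, 1.98 and 1.64 CPM in 11H1 and 1.26, 1.46 and 1.78 CPM in 14B5, with 11H1 above WT and 14B5 overlapping both. Neither gene, both active in blood progenitors, passed the threshold against WT (edgeR adjusted p = 0.481 and 0.170 for HOXA4 and 0.0602 and 0.343 for HOXA6, in 11H1 and 14B5) or between the clones.

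The genes at the other end of the cluster set the clones apart. HOXA10 was at 23.4, 24.6 and 23.2 CPM in the WT libraries, 11.3, 12.8 and 12.1 CPM in 11H1 and 27.5, 25.7 and 26.9 CPM in 14B5, with 11H1 below all other libraries and 14B5 just above WT. It was 1.96-fold lower in 11H1 than in WT (log2FC −0.97, SE 0.0664, edgeR adjusted p = 1.45e-07) and 2.21-fold lower in 11H1 than in 14B5 (log2FC −1.14, SE 0.0614, edgeR adjusted p = 3.69e-08). In 14B5 its rise over WT was small (log2FC 0.15, SE 0.0538, edgeR adjusted p = 0.0374), and the call was lost without WT replicate 1 (adjusted p = 0.0988), WT replicate 3 (0.0515), 14B5 replicate 1 (0.0718) or 14B5 replicate 3 (0.0761).

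HOXA11, a forelimb and uterus gene whose mutation causes loss of platelets with fused forearm bones, was at 7.57, 6.38 and 7.41 CPM in the WT libraries, 4.55, 4.69 and 3.80 CPM in 11H1 and 7.43, 7.73 and 7.76 CPM in 14B5. HOXA13, which patterns digits and the genital tract, was at 9.24, 9.86 and 10.4 CPM in the WT libraries, 6.35, 5.54 and 5.05 CPM in 11H1 and 11.5, 10.9 and 9.63 CPM in 14B5. In both genes 11H1 lay below every other library, while WT and 14B5 overlapped. HOXA11 was 1.62-fold and HOXA13 1.72-fold lower in 11H1 than in WT (edgeR adjusted p = 0.000166 and 2.90e-05), and neither passed the threshold in 14B5 versus WT (adjusted p = 0.442 and 0.356). For 11H1 versus 14B5 the log2FC was −0.80 and −0.90 (edgeR adjusted p = 2.01e-05 and 1.02e-05).

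Ratios of counts within a library do not depend on how libraries are scaled. They were formed after the values had been seen and carry no test. Expected counts of HOXA10 to HOXA9 stood at 1.29, 1.32 and 1.28 in WT, at 0.533, 0.510 and 0.499 in 11H1 and at 0.881, 0.897 and 0.907 in 14B5. HOXA10, HOXA11 and HOXA13 together relative to the other HOXA members gave 0.750 ± 0.00103 (SD, n = 3) in WT, 0.315 ± 0.0161 in 11H1 and 0.573 ± 0.00334 in 14B5. Both ratios separated the 3 groups without overlap and were lower in either clone than in WT. The annotated spans of HOXA9 and HOXA10 overlap on the same strand, where RSEM estimates how reads divide.

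**Figure D3:**
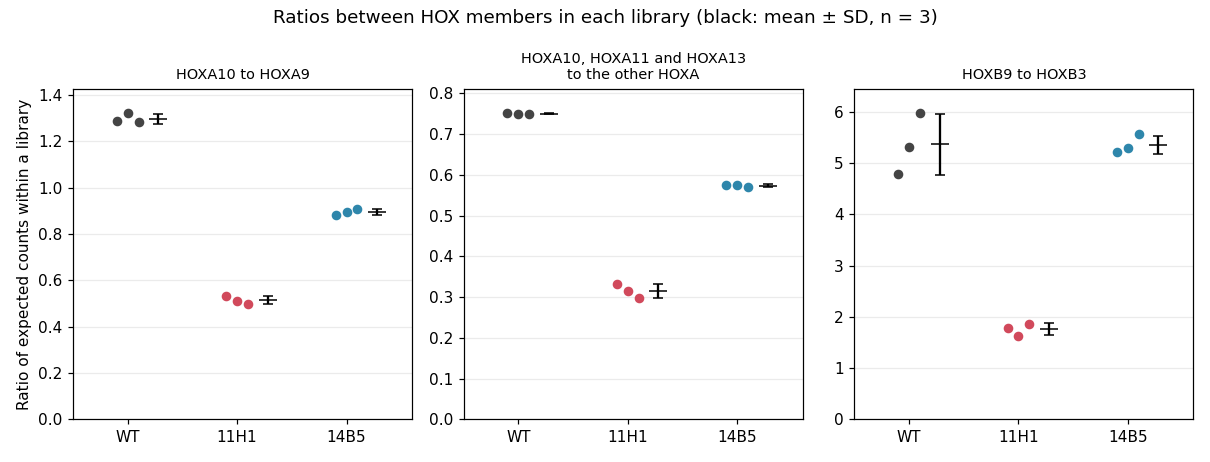
Ratio of expected counts between HOX members in each of 9 libraries, for HOXA10 to HOXA9, for HOXA10, HOXA11 and HOXA13 to the other HOXA members, and for HOXB9 to HOXB3; coloured points are libraries and black bars are mean ± SD (n = 3), with axes from 0. All 3 ratios are lowest in 11H1, and 14B5 lies between 11H1 and WT in the HOXA ratios but at the WT level for HOXB9 to HOXB3.

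In the HOXB cluster HOXB6, HOXB7 and HOXB9 fell in both clones. HOXB9, the highest member per kilobase, was at 79.3, 81.4 and 83.3 CPM in the WT libraries, 43.1, 41.5 and 42.8 CPM in 11H1 and 69.3, 67.5 and 67.2 CPM in 14B5. The 3 groups did not overlap, and HOXB9 was 1.90-fold lower in 11H1 (log2FC −0.93, SE 0.0460, edgeR adjusted p = 1.06e-08) and 1.21-fold lower in 14B5 (log2FC −0.27, SE 0.0440, edgeR adjusted p = 0.000489). The clones differed from each other by a log2FC of −0.67 (SE 0.0435, edgeR adjusted p = 1.46e-07).

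HOXB7 was at 5.68, 6.42 and 4.96 CPM in the WT libraries, 2.92, 2.89 and 2.59 CPM in 11H1 and 3.996, 3.55 and 4.49 CPM in 14B5. HOXB6, a gene of myeloid and erythroid progenitors, was at 2.44, 3.12 and 2.82 CPM in WT, 1.10, 1.40 and 1.03 CPM in 11H1 and 1.58, 1.47 and 1.25 CPM in 14B5. Every library of either clone lay below WT in both genes. HOXB7 was 2.02-fold lower in 11H1 and 1.44-fold lower in 14B5 (edgeR adjusted p = 2.05e-05 and 0.00649), and HOXB6 2.37-fold and 1.97-fold lower (adjusted p = 4.59e-05 and 0.000367). Between the clones HOXB7 was lower in 11H1 (edgeR adjusted p = 0.00437), whereas HOXB6 did not pass the threshold (log2FC −0.28, SE 0.191, adjusted p = 0.218).

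HOXB13 was at 1.77, 2.10 and 1.68 CPM in the WT libraries, 0.807, 0.853 and 0.791 CPM in 11H1 and 1.94, 2.17 and 1.90 CPM in 14B5, with 11H1 below the other 6 libraries and WT and 14B5 overlapping. It was 2.25-fold lower in 11H1 than in WT (log2FC −1.17, SE 0.181, edgeR adjusted p = 0.000124) and did not pass the threshold in 14B5 (log2FC 0.10, adjusted p = 0.579). HOXB8, which can block myeloid maturation when forced on, was at 0.549, 0.461 and 0.656 CPM in WT, 0.404, 0.426 and 0.213 CPM in 11H1 and 0.361, 0.201 and 0.400 CPM in 14B5. Both clones lay below WT, without a call in 11H1 (edgeR adjusted p = 0.0898). Its fall in 14B5 (log2FC −0.81, SE 0.305, edgeR adjusted p = 0.0460) was lost without any of the 3 WT libraries (adjusted p = 0.0906, 0.0584 and 0.131 without replicates 1 to 3), without 14B5 replicate 1 (0.0704) and without 14B5 replicate 2 (0.165).

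HOXB3 and HOXB5, genes of hematopoietic stem cells, rose in 11H1. HOXB3 was at 16.5, 15.3 and 14.0 CPM in the WT libraries, 24.2, 25.5 and 23.0 CPM in 11H1 and 13.3, 12.8 and 12.1 CPM in 14B5, highest in 11H1 and lowest in 14B5 without overlap. It was 1.59-fold higher in 11H1 (log2FC 0.67, SE 0.0741, edgeR adjusted p = 8.31e-06) and 1.22-fold lower in 14B5 (log2FC −0.28, SE 0.0795, edgeR adjusted p = 0.0131), the latter lost without WT replicate 1 (adjusted p = 0.0575). HOXB5 was at 1.28, 0.965 and 0.948 CPM in WT, 1.49, 1.68 and 1.55 CPM in 11H1 and 1.02, 0.870 and 0.853 CPM in 14B5, with 11H1 above the other 6 libraries. It was higher in 11H1 than in 14B5 (log2FC 0.79, SE 0.180, edgeR adjusted p = 0.00226) and than in WT (log2FC 0.55, SE 0.186, edgeR adjusted p = 0.0203). The second of these calls was lost with the DESeq2 Wald test (adjusted p = 0.0883) and without WT replicate 2 (0.0807), WT replicate 3 (0.0572) or 11H1 replicate 2 (0.0571).

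HOXB4 and HOXB2 did not pass the threshold in any comparison. HOXB4 was at 30.6, 30.1 and 28.5 CPM in the WT libraries, 25.5, 28.5 and 29.2 CPM in 11H1 and 27.0, 27.9 and 29.5 CPM in 14B5. HOXB2, a hindbrain gene, was at 12.1, 12.02 and 10.7 CPM in WT, 10.6, 12.5 and 9.40 CPM in 11H1 and 12.3, 11.7 and 12.6 CPM in 14B5. All 3 groups overlapped in both, and against WT the log2FC of HOXB4 was −0.10 in 11H1 and −0.10 in 14B5 (SE 0.0618 and 0.0546; edgeR adjusted p = 0.176 and 0.163). HOXB2 had an edgeR adjusted p of 0.1255 in 11H1 versus 14B5, and was past the threshold without 11H1 replicate 2 (0.0139) and without the filter on low counts (0.0481). HOXB9 to HOXB3 counts stood at 5.36 ± 0.591 (SD, n = 3) in WT, 1.76 ± 0.120 in 11H1 and 5.35 ± 0.184 in 14B5. On the same strand the annotated span of HOXB3 holds HOXB4 and HOXB5 and overlaps HOXB6, and that of HOXB7 holds HOXB8 and HOXB9, so that reads of shared parts may be divided between these genes.

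In HOXC, HOXC4 and HOXC6 were lowest in 11H1 and highest in 14B5. HOXC4, known from lymphoid cells, was at 2.58, 2.20 and 1.94 CPM in the WT libraries, 0.917, 1.19 and 1.10 CPM in 11H1 and 3.72, 3.21 and 4.003 CPM in 14B5, with no overlap between groups. It was 2.13-fold lower in 11H1 than in WT (log2FC −1.09, SE 0.180, edgeR adjusted p = 0.000214), 1.60-fold higher in 14B5 (log2FC 0.68, SE 0.143, edgeR adjusted p = 0.00265) and 3.43-fold lower in 11H1 than in 14B5 (edgeR adjusted p = 2.07e-06). HOXC6 was at 2.32, 2.35 and 2.601 CPM in WT, 1.74, 2.22 and 2.01 CPM in 11H1 and 2.80, 3.41 and 3.33 CPM in 14B5, again without overlap. It was lower in 11H1 than in 14B5 (log2FC −0.68, SE 0.149, edgeR adjusted p = 0.00167), higher in 14B5 than in WT (log2FC 0.38, SE 0.1245, edgeR adjusted p = 0.0256) and not past the threshold in 11H1 versus WT (adjusted p = 0.1003). The rise in 14B5 was lost without WT replicate 1 (edgeR adjusted p = 0.0738), WT replicate 2 (0.0927), 14B5 replicate 2 (0.0901) or 14B5 replicate 3 (0.0674). The annotated span of HOXC4 overlaps those of HOXC5 and HOXC6 on the same strand, and that of HOXC6 holds HOXC8 and HOXC9.

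HOXD13 gave the largest change of 11H1 among members at 1 CPM or more in WT. It was at 5.53, 6.69 and 6.34 CPM in the WT libraries, 0.789, 0.975 and 0.882 CPM in 11H1 and 4.11, 3.81 and 4.19 CPM in 14B5, so that the groups were far apart in the order WT, 14B5, 11H1. HOXD13 was 7.06-fold lower in 11H1 (log2FC −2.82, SE 0.143, edgeR adjusted p = 1.25e-08) and 1.55-fold lower in 14B5 (log2FC −0.63, SE 0.105, edgeR adjusted p = 0.000607), and the clones differed 4.59-fold (edgeR adjusted p = 1.98e-07).

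HOXD8 was at 0.407, 0.336 and 0.292 CPM in WT, 0.0550, 0 and 0.0304 CPM in 11H1 and 0.0903, 0.234 and 0.191 CPM in 14B5. HOXD8 passed the filter on low counts only through WT (20, 16 and 12 counts), which favoured a fall, and was not tested between the clones. WT lay above both clones without overlap, and the fall passed the threshold in 11H1 (edgeR adjusted p = 0.000267, from 4 counts over the 3 libraries) and in 14B5 (log2FC −0.97, SE 0.366, edgeR adjusted p = 0.0466). In 14B5 it held under 4 of 13 alternatives and was lost without WT replicate 1 (edgeR adjusted p = 0.148), 2 (0.103) or 3 (0.0586) and without 14B5 replicate 1 (0.128) or 3 (0.0813). The 8 HOXD members other than HOXD13 together had 55, 64 and 43 counts in WT libraries 1 to 3, 12, 3 and 10 in 11H1 and 15, 33 and 24 in 14B5, or 1.17, 0.205 and 0.436 CPM on average, with no overlap between WT and a clone.

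The other 15 members were tested in no comparison and reached at most 21.1 counts in a library, and HOXC11 had none in any. They were HOXB1, HOXC5, HOXC8 to HOXC13, HOXD1, HOXD3, HOXD4 and HOXD9 to HOXD12. When the filter was lifted, edgeR called 41.2% of 27876 genes in 11H1 versus WT, 35.5% of 27429 in 14B5 versus WT and 41.3% of 27024 in 11H1 versus 14B5. HOXD10 then passed the threshold, with 35.0 counts over the WT libraries, 1 over 11H1 and 8 over 14B5 (edgeR adjusted p = 4.11e-06 and 0.00520), as did HOXD11 with 18.0, 1 and 2 counts (adjusted p = 0.00550 and 0.0130). The WT libraries were uneven, with 4, 21.1 and 9.97 counts of HOXD10 and 12, 3.94 and 2.03 of HOXD11. In CPM, WT and 14B5 overlapped for HOXD10. The annotated spans of the 2 genes overlap on the same strand, so reads of shared parts may be divided between them. HOXD1, with 28, 10 and 12 counts, had an edgeR adjusted p of 0.0449 in 14B5 and of 0.0986 in 11H1. Between the clones HOXC5 (0 counts in 11H1, 12.4 in 14B5), HOXC8 (6 and 33) and HOXD8 (4 and 29) were lower in 11H1 (edgeR adjusted p = 0.00655, 0.00786 and 0.00506). Where none was counted, as many as 3 counts (0.0914 CPM at the lowest depth) could have been missed by counting error alone.

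Noncoding genes lay among the members. Of 54 genes of other biotypes within the clusters 7 were tested in each comparison, not the same 7 between the clones as against WT, with 2 higher and 3 lower in 11H1 versus WT, 4 lower in 14B5 versus WT and 3 higher in 11H1 versus 14B5. Over all genes 64.6%, 53.5% and 63.7% were called in these comparisons, so the counts are no result about the noncoding genes as a group. HOTAIRM1, a myeloid noncoding RNA beside HOXA2, was at 3.58, 3.48 and 2.86 CPM in the WT libraries, 3.88, 4.17 and 5.01 CPM in 11H1 and 2.75, 2.24 and 2.16 CPM in 14B5. It was higher in 11H1 (log2FC 0.39, SE 0.134, edgeR adjusted p = 0.0230) and lower in 14B5 (log2FC −0.50, SE 0.143, edgeR adjusted p = 0.0140), while HOXA2 was higher in both.

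HOXA11-AS, antisense to HOXA11, was at 4.56, 4.60 and 3.82 CPM in the WT libraries, 1.79, 2.35 and 2.35 CPM in 11H1 and 2.14, 2.29 and 2.28 CPM in 14B5, with both clones below WT (log2FC −1.02, SE 0.144, edgeR adjusted p = 6.13e-05 in 11H1; log2FC −0.96, SE 0.118, edgeR adjusted p = 7.94e-05 in 14B5). The clones did not differ past the threshold (log2FC −0.06, SE 0.155, edgeR adjusted p = 0.746), whereas HOXA11 itself was lower in 11H1 than in 14B5. Whether counting used the strand of reads was not given in the sources used here, so reads of HOXA11 and HOXA11-AS may be shared. HOTTIP, which runs from the HOXA13 end of the cluster and was taken here with the genes beside it, averaged 6.34 CPM in WT, 6.18 CPM in 11H1 and 4.15 CPM in 14B5, and was lower in 14B5 (log2FC −0.62, edgeR adjusted p = 0.000361) and not past the threshold in 11H1 (log2FC −0.03, adjusted p = 0.822).

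In HOXB, AC103702.2, which lies between HOXB9 and HOXB13, was at 1.04, 0.923 and 1.02 CPM in the WT libraries, 0.0734, 0.0609 and 0.183 CPM in 11H1 and 0.271, 0.1004 and 0.209 CPM in 14B5, with both clones far below WT (log2FC −3.26, SE 0.345, edgeR adjusted p = 5.71e-06 in 11H1; log2FC −2.41, SE 0.302, edgeR adjusted p = 9.16e-05 in 14B5). In HOXD, HOXD-AS2, antisense across HOXD8 and HOXD9, was at 0.387, 0.503 and 0.438 CPM in WT, 0, 0 and 0 CPM in 11H1 and 0.0677, 0.0167 and 0.0696 CPM in 14B5. It had no counts in 11H1, and WT lay above both clones. AC103702.2 and HOXD-AS2 passed the filter on low counts only through WT, so the filter favoured their falls. HAGLR, antisense at the HOXD1 end, was at 0.814, 1.03 and 1.22 CPM in WT, 1.94, 1.49 and 2.25 CPM in 11H1 and 1.38, 1.30 and 1.34 CPM in 14B5. It was higher in 11H1 than in WT (log2FC 0.91, SE 0.210, edgeR adjusted p = 0.00232) and not past the threshold in 14B5 (adjusted p = 0.0955). HOXB-AS1 did not pass the threshold against WT (adjusted p = 0.239 and 0.472) but was higher in 11H1 than in 14B5 (log2FC 0.69, SE 0.267, edgeR adjusted p = 0.0398). On the other strand HOXD-AS2 spans HOXD8 and HOXD9 and overlaps HOXD3, HAGLR overlaps HOXD1 and HOXD3, and HOXB-AS1 overlaps HOXB2 and HOXB3. As for HOXA11-AS, reads may be shared between these genes.

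**Figure D4:**
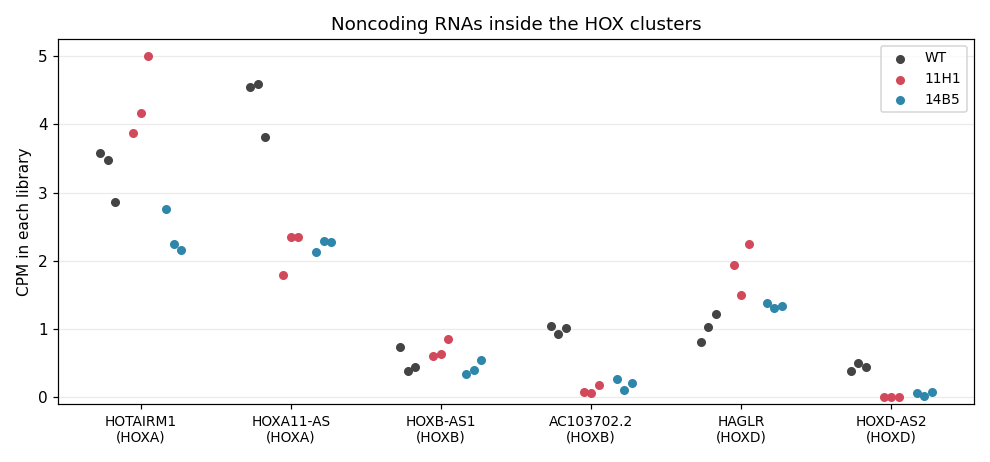
CPM in each of 9 libraries of 6 noncoding RNAs inside the HOX clusters, coloured by group; the cluster is given under each name. HOXA11-AS, AC103702.2 and HOXD-AS2 are lower in both clones than in WT, HOTAIRM1 is highest in 11H1 and lowest in 14B5, and HAGLR is highest in 11H1.

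Genes beside the clusters, within 1000000 bases, were set beside the members. For the 6 tested beside HOXD the median log2FC was −0.27 in 11H1 and −0.02 in 14B5, against −0.01 over all genes in each. In 11H1 4 were lower and none higher, and in 14B5 2 were higher and none lower. Over all genes 32.8% were lower in 11H1 and 24.9% higher in 14B5. The lowest were at −0.60 and −0.88, and HOXD13 was at −2.82 and −0.63. In 14B5 the lowest thus lay below HOXD13, though not past the threshold (edgeR adjusted p = 0.0534). Beside HOXA the medians of 13 genes were −0.13 and 0.09, beside HOXB 0.04 (35 genes) and −0.06 (37 genes), and beside HOXC 0.03 and −0.09 (42 genes). Single genes ranged from −0.86 to 0.98 and from −1.27 to 0.26 beside HOXA, from −3.26 to 3.68 and from −3.15 to 2.15 beside HOXB, wider than the HOXB members, and from −1.78 to 1.32 and from −1.42 to 0.83 beside HOXC. Copy number of these regions in the clones was not tested.

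The MEIS, PBX and PKNOX genes, the TALE homeodomain partners of HOX proteins, divided. Of 8 tested (64.6% of all genes were called in 11H1 and 53.5% in 14B5, with a median log2FC of −0.01 in each), 5 were higher and 2 lower in 11H1, and 3 higher and 2 lower in 14B5, with medians of 0.21 and 0.09 in log2FC. Between the clones 3 were higher and 1 lower in 11H1, where 63.7% of all genes were called. MEIS1, the partner of HOXA9 in leukemia, was at 9.32, 8.81 and 9.14 CPM in the WT libraries, 6.44, 6.24 and 6.66 CPM in 11H1 and 4.22, 4.13 and 3.88 CPM in 14B5, in 3 separate ranges, and fell in both (log2FC −0.49, SE 0.0801, edgeR adjusted p = 0.000200 in 11H1; log2FC −1.17, SE 0.0848, edgeR adjusted p = 1.81e-06 in 14B5). PBX3, which works with HOXA9 and MEIS1, was at 32.3, 31.6 and 33.1 CPM in WT, 42.1, 43.2 and 43.6 CPM in 11H1 and 47.8, 42.5 and 40.3 CPM in 14B5, above WT in either clone (log2FC 0.42 and 0.41; edgeR adjusted p = 1.08e-05 and 0.000505). PBX4 (log2FC 1.23 and 0.78) and PKNOX1 (0.22 and 0.22) rose in both clones.

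Most genes of the list of HOX activators rose in 11H1. Of 14 tested, 11 were higher and 2 lower in 11H1 (median log2FC 0.39), and 5 higher and 3 lower in 14B5 (median 0.14), with 10 higher and 1 lower in 11H1 than in 14B5. Over all genes tested 31.8% were higher in 11H1, 24.9% in 14B5 and 31.6% in 11H1 versus 14B5. KMT2A was at 186, 206 and 229 CPM in the WT libraries, 395, 348 and 382 CPM in 11H1 and 171, 193 and 189 CPM in 14B5, with 11H1 above the other 6 libraries (log2FC 0.87, SE 0.0736, edgeR adjusted p = 9.38e-07). It did not pass the threshold in 14B5 versus WT (log2FC −0.18, adjusted p = 0.0674) and was higher in 11H1 than in 14B5 (log2FC 1.03, SE 0.0595, edgeR adjusted p = 6.14e-08). KMT2B (log2FC 0.79) and ASH1L (0.94), which are methyltransferases of the same trithorax kind, were the other leading rises in 11H1, and in 14B5 they were at −0.17 and 0.24 (edgeR adjusted p = 0.0186 and 0.0444). MEN1, encoding menin, was higher in 11H1 (log2FC 0.28, edgeR adjusted p = 0.000188) and not past the threshold in 14B5 (0.14, adjusted p = 0.0642). In 14B5 the largest rises were KAT7, an acetyltransferase (log2FC 0.40), KDM6A, which removes the Polycomb mark (0.35), and PSIP1, which tethers menin to chromatin (0.25), the last of which fell in 11H1 (−0.18). The falls in 14B5 were AFF4, a scaffold of the super elongation complex (−0.60), lower also in 11H1 (−0.40), KDM6B (−0.45), which rose in 11H1 (0.39), and KMT2B. The 4 listed genes that were not tested, CDX1, CDX2, CDX4 and MLLT3, had no counts in any library.

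All 23 Polycomb genes were tested, with 12 higher and 4 lower in 11H1 (median log2FC 0.24), and 13 higher and 3 lower in 14B5 (median 0.17); 6 were higher and 9 lower in 11H1 than in 14B5. The shares of the list called, 69.6% in each clone and 65.2% between them, stood beside 64.6%, 53.5% and 63.7% of all genes. EZH2, the methyltransferase of PRC2, was at 40.6, 39.2 and 39.5 CPM in WT, 54.3, 53.3 and 52.5 CPM in 11H1 and 49.2, 42.7 and 47.2 CPM in 14B5, higher in both clones (log2FC 0.43, SE 0.0465, edgeR adjusted p = 6.70e-06 in 11H1; log2FC 0.21, SE 0.0596, edgeR adjusted p = 0.0150 in 14B5). CBX7, a PRC1 reader, led the rises in both, at log2FC 0.76 and 0.96 (edgeR adjusted p = 0.000102 and 3.48e-05). It was followed in 11H1 by ASXL1, a partner of the deubiquitinase BAP1 (0.69), and EZH1, the paralog of EZH2 (0.68), and in 14B5 by the PRC2 core subunit EED (0.63). The largest falls in 11H1 were PHC2 (−0.26), MTF2 (−0.24) and RNF2 (−0.16), and those in 14B5 were CBX2 (−0.22), EZH1 (−0.16) and PCGF2 (−0.15).

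**Figure D5:**
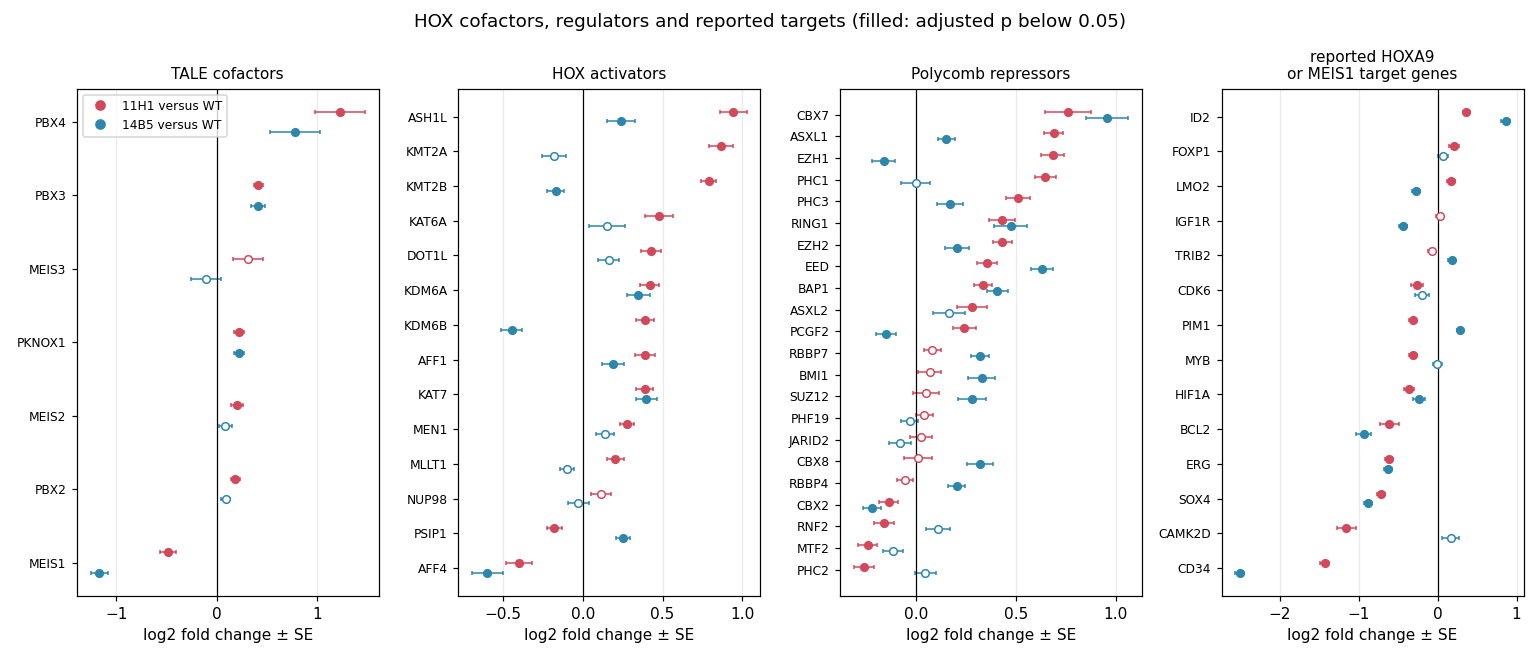
log2 fold change against WT (points, bars are ± SE) of tested TALE cofactors, HOX activators, Polycomb genes and reported HOXA9 or MEIS1 targets in 11H1 and 14B5; filled points have an adjusted p below 0.05 in edgeR, and the horizontal scale differs between panels. MEIS1 is lower in both clones, KMT2A, KMT2B and ASH1L rise most among the activators in 11H1, and CD34 is the lowest of the targets in both.

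Of 14 tested genes that are widely reported as bound or driven by HOXA9 or MEIS1 in leukemia, 3 were higher and 9 lower in 11H1 (median log2FC −0.31), and 3 higher and 7 lower in 14B5 (median −0.22); 6 were higher and 5 lower in 11H1 than in 14B5. Over all genes tested 32.8% were lower in 11H1 and 28.7% in 14B5, and between the clones 31.6% were higher and 32.1% lower in 11H1. CD34, the surface marker of progenitors, was at 259, 269 and 286 CPM in the WT libraries, 96.0, 98.3 and 107 CPM in 11H1 and 46.3, 50.02 and 48.8 CPM in 14B5, in 3 separate ranges (log2FC −1.43, SE 0.0549, edgeR adjusted p = 1.51e-09 in 11H1; log2FC −2.50, SE 0.0549, edgeR adjusted p = 9.88e-10 in 14B5). CAMK2D fell in 11H1 (log2FC −1.15) and not past the threshold in 14B5 (0.17, edgeR adjusted p = 0.204). SOX4 fell in both (log2FC −0.71 and −0.88), as did BCL2, an inhibitor of apoptosis (−0.61 and −0.94). ID2, a differentiation inhibitor, rose in both (log2FC 0.36 and 0.86). The other rises were FOXP1 (0.20) and LMO2 (0.17) in 11H1 and PIM1 (0.28) and TRIB2 (0.18) in 14B5. LMO2 fell in 14B5 (−0.27, edgeR adjusted p = 0.00131) and PIM1 fell in 11H1 (−0.31, edgeR adjusted p = 6.64e-05). FOXP1 in 14B5 and TRIB2 in 11H1 were not past the threshold.

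Outside the clusters, 4 of 20 other homeobox genes were tested, 2 higher and 1 lower in each clone. Over all genes 64.6% were called in 11H1 and 53.5% in 14B5, so these counts are no result about homeobox genes as a group. TLX1, a homeobox gene activated by translocation in T cell leukemia, was at 0.0203, 0.0210 and 0.0729 CPM in the WT libraries, 1.34, 1.46 and 1.25 CPM in 11H1 and 4.15, 4.73 and 4.75 CPM in 14B5. WT libraries had 1 to 3 counts, and every library of the clones was above 1 CPM (edgeR adjusted p = 2.55e-07 in 11H1 and 2.48e-08 in 14B5). TLX1 thus passed the filter against WT only through the clones. It was lower in 11H1 than in 14B5 (log2FC −1.75, SE 0.134, edgeR adjusted p = 5.08e-07). MNX1 was at 0.244, 0.210 and 0.219 CPM in WT, 0.550, 0.426 and 0.426 CPM in 11H1 and 0.542, 0.535 and 0.696 CPM in 14B5, also above WT in either clone (log2FC 1.09 and 1.37). HHEX, a hematopoietic homeobox gene, was slightly lower in both (log2FC −0.16 and −0.24; edgeR adjusted p = 0.00958 and 0.00429).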

How the data were processed

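RNA-seq of untreated SET2 cells covered WT (n = 3), 11H1 (n = 3) and 14B5 (n = 3). For each gene the authors deposited expected counts from RSEM, which carry no scaling for depth or length. The submitters' processing notes name STAR 2.7.9a, Picard, RSEM and GRCh38; the annotation release and any use of strand in counting are not given in the sources used here. All 6 deposited KO libraries were used, 1 more than the study gives for its comparison of KO with WT. Library kits named in the labels and in the study's methods differ. Of 60754 rows, 92 were spike-ins at 0 and were left out, and 8 of 351 member values were not whole.

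Rounded expected counts were tested in edgeR 4.0.16 (R 4.3.3) with TMM, filterByExpr and the quasi-likelihood F test. Each fit held the 2 groups compared, and p was adjusted by Benjamini-Hochberg over all genes tested (threshold 0.05). An exact permutation of 3 against 3 libraries cannot go below 0.1 (2-sided) and was not used. Replicate libraries of a clone share 1 founder, and separate cultures are not stated. GENCODE v29 gave positions and exon lengths for 58587 genes (96.6%), and RefSeq the promoter letters. Members and gene lists were chosen with earlier results of these data known. All members reaching 1 CPM on average in a group are given by library, and from each list the 3 largest rises and falls past the threshold in a clone, with MEIS1, PBX3, KMT2A, MEN1 and EZH2. Other settings tried were size factors and the Wald test of DESeq2 1.42.0, voom in limma 3.58.1 on unrounded values, no filter, a minimum of 10 counts in every library, all 3 groups in one fit, a block for replicate number, removal of mitochondrial and globin genes, and removal of each library. Fits were tested on simulated counts. Homeodomain proteins were not analysed here, and single genes that these rules would name are not reported here, though counts and sums include them.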

Additional observations from a re-analysis of the deposited data

Results flagged for a closer look

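For 12 members the clones differed from each other, by the direct test of 11H1 versus 14B5 in edgeR. Lower in 11H1 were HOXD13 (log2FC −2.20), HOXC4 (−1.78), HOXB13 (−1.29), HOXA10 (−1.14), HOXA13 (−0.90), HOXA11 (−0.80), HOXC6 (−0.68), HOXB9 (−0.67), HOXB7 (−0.51) and HOXA9 (−0.34). Higher in 11H1 were HOXB3 (0.94) and HOXB5 (0.79). Their edgeR adjusted p ran from 3.69e-08 for HOXA10 to 0.00437 for HOXB7, and all 12 stayed past the threshold under each of the 14 alternatives run for this comparison. For HOXA10, HOXB3 and HOXC4 the calls against WT also had opposite signs in the clones, which share their WT libraries; those of HOXA10 and HOXB3 in 14B5 were lost without single libraries. The comparison of 2 clones with 1 founder cell each cannot tell an effect of the KO from a difference between founders.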

How the results depend on the processing

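Over the members' log2FC, 329 alternative values in 11H1 versus WT, 293 in 14B5 versus WT and 313 in 11H1 versus 14B5 kept their direction and side of the threshold, 4, 41 and 0 were no longer past it, and 2 between the clones (HOXB2) became past it. No call against WT changed sign in an alternative. The 41 calls lost in 14B5 concerned HOXA2, HOXA5, HOXA10, HOXB3, HOXB8, HOXC6 and HOXD8, and the 4 lost in 11H1 concerned HOXB5. Reversals were of values past the threshold in no fit, all in 11H1 versus 14B5. HOXB4 came to 0.000543 with at least 10 counts in every library. With a library left out HOXB4 ran from −0.0657 to 0.0413, HOXA3 from −0.127 to 0.00995, HOXA4 from −0.134 to 0.00326 and HOXB8 from −0.110 to 0.379; the cause was not tested. Members called with a library left out ran from 16 to 18 (11H1 versus WT), 11 to 16 (14B5 versus WT) and 12 to 15 (11H1 versus 14B5).

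The replicate number as a block left 5 members higher in 14B5 versus WT in place of 9, and 17, 11 and 12 members called in the 3 comparisons. Same-numbered libraries did not deviate together (correlations from −0.145 to 0.0581), so the numbers were not taken as pairs. The TALE cofactors called in 11H1 versus 14B5, 4 in all, came to 2 with the DESeq2 Wald test and with no filter, and ran from 2 to 4 with a library left out (2 without 11H1 replicate 1, 11H1 replicate 2 or 14B5 replicate 2). With at least 10 counts in every library 1 other homeobox gene was called in each clone in place of 3, since 2 rather than 4 were tested. Depth limits the 19 members under 1 CPM.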
